A study of Rattus norvegicus with 6 samples.

Results

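Zfp genes are named for zinc finger proteins, and 220 of the 14217 genes measured here carry a symbol made of Zfp and a number. They were chosen by that symbol alone, and 341 probe sets stood for them. Messenger RNA was measured on 6 Affymetrix rat arrays of primary Schwann cells, the glia that wrap and myelinate peripheral axons, taken from sciatic nerve. All cells carried RafER, a tamoxifen-inducible form of the kinase Raf, and were kept in minimal medium before treatment. Of the arrays, 3 came from cells given tamoxifen for 24 h and 3 from cells given the ethanol vehicle, from 3 experiments that the design text calls independent. The source labels speak of treated rats, the design text of treated cultures, and the design text was followed. No source used here states the promoter that drives RafER. Tamoxifen on cells without RafER was not analysed here, so Raf and tamoxifen itself cannot be told apart.

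Most Zfp proteins hold rows of C2H2 fingers, loops in which cysteine and histidine residues grip a zinc ion and which read DNA sequence. Many of them also carry a KRAB box, which recruits the corepressor Trim28 and silences the bound locus, often a transposable element. A few members have other kinds of finger: the CCCH proteins Zfp36, Zfp36l1 and Zfp36l2 bind AU-rich elements in messenger RNA and hasten its decay. Raf switches on MEK and ERK, which induce early-response transcription factors and, in Schwann cells, drive loss of the myelinating state.

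The 4 promoters shown here, from the RefSeq promoter table (build GRCr8), belong to the 3 genes with the largest rises and to Zfp536, all of whose probe sets fell. Each runs from 250 bases before to 50 after the gene's start. Capitals mark a match to the ETS core CCGGAAG, the AP-1 site TGACTCA or the EGR core GCGTGGG, read on both strands, and no matches overlap in these windows. They lie at chr17:970646-970945 (plus strand), chr2:86426714-86427013 (plus), chr6:16242372-16242671 (plus) and chr1:99598994-99599293 (minus).
Zfp367: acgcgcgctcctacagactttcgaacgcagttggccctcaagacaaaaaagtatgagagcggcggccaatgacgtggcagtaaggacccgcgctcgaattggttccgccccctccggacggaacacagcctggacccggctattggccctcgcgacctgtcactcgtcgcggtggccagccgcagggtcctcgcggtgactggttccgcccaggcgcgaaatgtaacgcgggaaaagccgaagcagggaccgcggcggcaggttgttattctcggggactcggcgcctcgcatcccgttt
Zfp455: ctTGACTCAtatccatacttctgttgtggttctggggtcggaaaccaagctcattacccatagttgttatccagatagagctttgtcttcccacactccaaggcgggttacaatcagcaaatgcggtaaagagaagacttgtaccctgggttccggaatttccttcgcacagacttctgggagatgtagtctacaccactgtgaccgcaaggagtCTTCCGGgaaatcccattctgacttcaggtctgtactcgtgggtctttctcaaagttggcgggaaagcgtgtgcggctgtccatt
Zfp36l2: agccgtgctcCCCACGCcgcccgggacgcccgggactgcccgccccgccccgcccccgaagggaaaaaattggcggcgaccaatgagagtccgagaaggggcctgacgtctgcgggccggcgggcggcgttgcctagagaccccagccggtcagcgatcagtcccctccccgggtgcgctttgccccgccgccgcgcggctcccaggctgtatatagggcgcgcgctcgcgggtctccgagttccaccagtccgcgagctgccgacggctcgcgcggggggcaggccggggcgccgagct
Zfp536: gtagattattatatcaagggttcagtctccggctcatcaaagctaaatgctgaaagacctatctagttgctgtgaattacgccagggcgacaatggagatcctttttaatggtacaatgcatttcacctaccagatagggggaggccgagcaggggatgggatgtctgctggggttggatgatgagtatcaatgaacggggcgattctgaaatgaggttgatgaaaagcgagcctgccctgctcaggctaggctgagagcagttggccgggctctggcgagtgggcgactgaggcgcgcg

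The arrays of 1 group correlated at 0.984 to 0.995 over probe sets, and those of different groups at 0.934 to 0.966. The vehicle array of experiment 1 stood apart in RNA quality. Control probe sets at the 3' end of 3 rat transcripts were brighter than those at the 5' end by a mean of 0.84 log2 units there. The same excess was 0.16 to 0.22 on the tamoxifen arrays and 0.16 and 0.27 on the other vehicle arrays. Of 6 measured Schwann cell markers, 4 fell after tamoxifen (Pmp22, Mbp, Ngfr and S100b), and the mean log2 level of the list was 10.29 to 10.75 on tamoxifen arrays and 11.60 to 11.90 on vehicle arrays. None of 8 macrophage, 4 endothelial or 5 smooth muscle and pericyte markers passed the test. Their list means were 4.74 to 4.82, 4.64 to 4.76 and 5.48 to 5.61 on tamoxifen arrays, and 4.71 to 4.75, 4.62 to 4.66 and 5.40 to 5.47 on vehicle arrays. Of 9 fibroblast markers 2 rose (Fbln1 and Pdgfra) and 3 collagen genes fell, with list means of 7.82 to 7.94 on tamoxifen arrays and 7.96 to 8.07 on vehicle arrays. The part of these differences in the results below was not tested, and in such bulk samples fewer cells of a type and less RNA per cell cannot be told apart.

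After tamoxifen, 81 of the 220 Zfp genes were lower and 13 were higher, while 126 did not pass (limma, Benjamini-Hochberg adjusted p under 0.05 over all 31042 probe sets). Among all 14217 genes, 17.3% were called lower and 13.9% higher, and among the Zfp genes the shares were 36.8% and 5.91%. The symbol class was taken up with results of this comparison known, so these shares describe it and no test was made over the class. The median log2 fold change was -0.29 for Zfp genes, against 0.01 for all genes, and the bounds of the middle 50% were -0.61 and 0.02, against -0.31 and 0.21. Most changes were modest: among called genes the median was -0.71 for those lower and 0.67 for those higher. Falls of at least 1 log2 unit were called for 22 of the 220 Zfp genes, where 6.04% of all genes had one, and rises of that size for 4, where 5.72% of all genes had one. Without tamoxifen array 2 the count of lower Zfp genes was 49 and that of higher ones 8. Without tamoxifen array 3 these were 49 and 10, and without tamoxifen array 1 they were 58 and 7. The calls over all probe sets shrank too: in the same order, 8.59%, 8.62% and 10.3% were lower, and 7.82%, 8.02% and 9.62% higher. Without the vehicle array of weak 5' signal, 69 Zfp genes were lower and 16 higher. With the unmoderated test 36 were lower and 7 higher, where 5.52% of all probe sets were lower and 6.30% higher. A test for changes beyond 1.5-fold gave 11 and 3, where 1.98% of all probe sets were lower and 2.68% higher. The shares of all probe sets are not on the same unit as the Zfp counts, which take 1 probe set per gene. With all arrays in the main test, 12.9% of probe sets were lower and 11.5% higher, against 17.3% and 13.9% of genes.

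**Figure D1:**
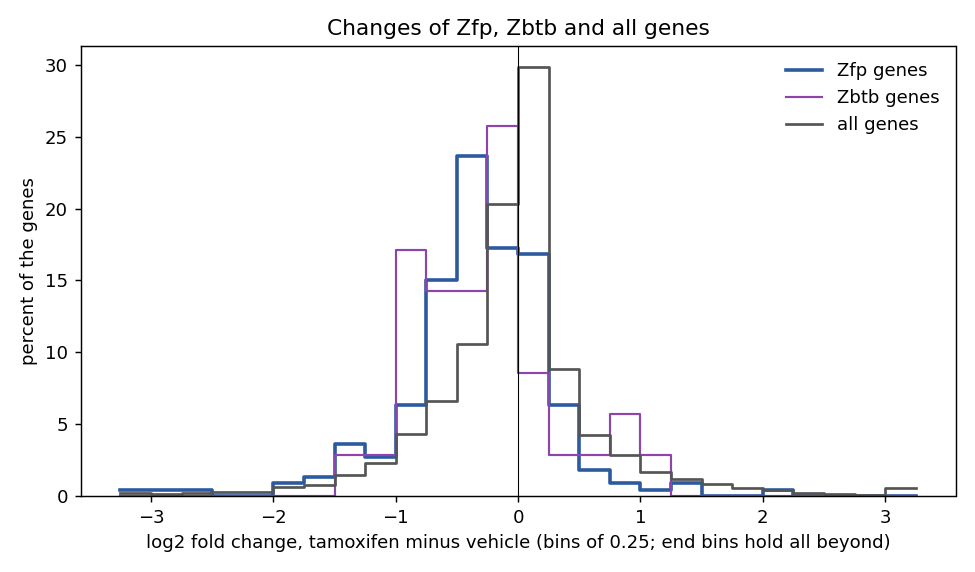
Percent of genes (y axis) in bins of log2 fold change, tamoxifen minus vehicle (x axis), for 220 Zfp genes, 35 Zbtb genes and all 14217 genes, with 1 probe set per gene. The Zfp and Zbtb curves are centred left of the curve of all genes, with medians of -0.29, -0.32 and 0.01.

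The 3 tamoxifen values lay entirely below the 3 vehicle values for 110 of the 220 Zfp genes, against 25.4% of all genes, and entirely above them for 24 (10.9%, against 23.7%). The groups overlapped for the other 86. Taken experiment by experiment, 161, 157 and 156 of the 220 genes were lower after tamoxifen in experiments 1, 2 and 3, with median differences of -0.30, -0.25 and -0.29. In all genes 52.9%, 48.2% and 48.1% were lower, so the balance of the Zfp genes was alike in each experiment. A difference below 0 in all 3 experiments was seen for 129 Zfp genes, one above 0 in all 3 for 36, and mixed signs for 55. These were 58.6% and 16.4% of Zfp genes, against 32.6% and 31.7% of all genes. The spread between arrays of a group was small, with a median SD of 0.13 log2 units on tamoxifen arrays and 0.16 on vehicle arrays. Of the 94 calls, 46 held whichever single array was left out, 39 of them lower and 7 higher.

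**Figure D2:**
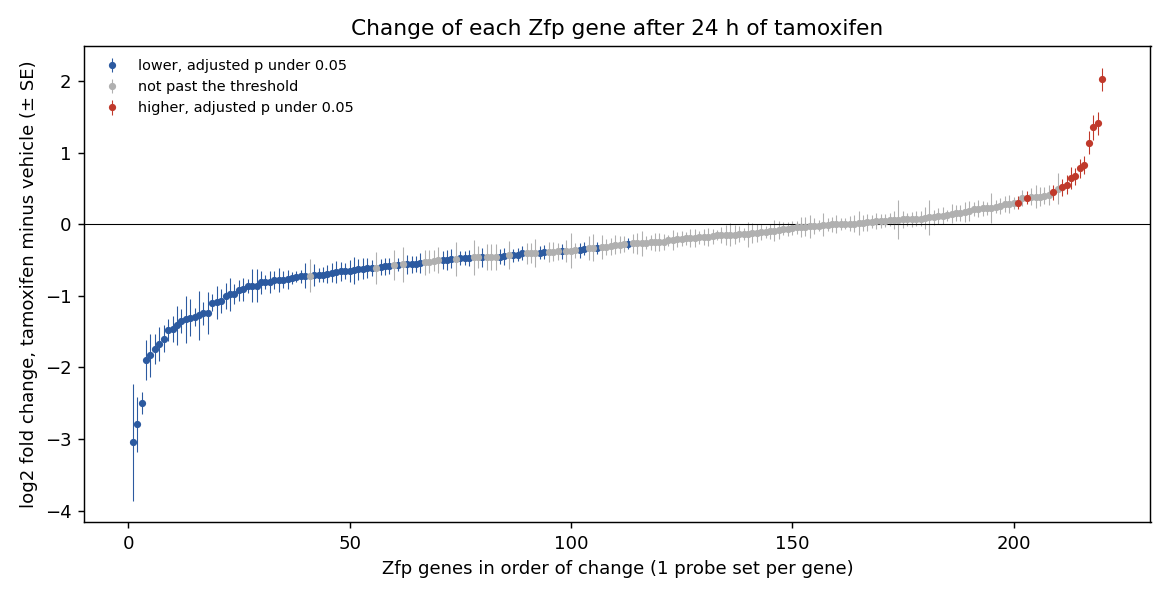
Log2 fold change with its standard error (y axis) for each of the 220 Zfp genes in order of change (x axis). Colours mark the 81 genes called lower, the 13 called higher and the 126 not past the threshold; changes run from -3.05 to 2.02.

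The largest rise was found in the list for cell division and DNA repair. Zfp367, known in human as an activator of globin genes in erythroid cells, had log2 values of 7.14, 7.75 and 7.64 on tamoxifen arrays, against 5.46, 5.50 and 5.50 on vehicle arrays. The tamoxifen values all lay well above the vehicle values, which were almost equal. The rise was 2.02 ± 0.16 (SE, 4.06-fold, adjusted p = 0.000651 in limma). Zfp280c, whose human counterpart acts in DNA repair, was at 8.53, 8.46 and 8.90 after tamoxifen and at 7.88, 7.82 and 7.85 in vehicle. It rose by 0.78 ± 0.13 (adjusted p = 0.00688), with no overlap of the groups. Zfp207, a spindle protein that binds the checkpoint protein Bub3, had 11.09, 11.09 and 11.02 after tamoxifen against 10.81, 10.85 and 10.65 in vehicle. These groups were separate too, but the difference of 0.30 ± 0.09 did not pass (adjusted p = 0.0563), and its other probe sets gave -0.47 and 0.06. The difference was 0.37 ± 0.11 for Zfp668 (adjusted p = 0.0527) and -0.02 ± 0.08 for Zfp830. The other probe sets of Zfp668 gave 0.50 and 0.68, of which 1 rose and 1 did not pass. Of these 5 genes listed for cell division and DNA repair, then, 2 rose and none fell, with a median of 0.37. Among all Zfp genes 5.91% were higher and 36.8% lower, and among all genes 13.9% and 17.3%.

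Of the CCCH genes that promote decay of messenger RNA, 1 of 3 passed. Zfp36l2 gave 11.60, 11.34 and 11.64 on tamoxifen arrays, against 10.49, 9.85 and 10.20 on vehicle arrays. Every tamoxifen value exceeded every vehicle value, and the gene rose by 1.35 ± 0.18 (2.55-fold, adjusted p = 0.00291). Its other probe sets also rose, by 1.33 and 0.48. Zfp36, the family's best known early-response gene, had 9.01, 8.75 and 8.64 after tamoxifen against 9.24, 8.85 and 8.74 in vehicle. Its groups overlapped, and the difference was -0.15 ± 0.16 (adjusted p = 0.582). Zfp36l1 was at 11.80, 11.54 and 11.48 after tamoxifen and at 11.75, 11.77 and 12.26 in vehicle, a difference of -0.32 ± 0.17 (adjusted p = 0.229) with overlapping groups. Among 21 measured genes for deadenylation and decay of messenger RNA, with which CCCH proteins work, 3 rose and 4 fell, with a median of -0.14. These were 14.3% and 19.0%, near the 13.9% and 17.3% of all genes. The exonuclease gene Xrn1 fell by 0.79 ± 0.16, the deadenylase subunit gene Pan2 fell by 0.61 ± 0.13, and Hnrnpd, which encodes an AU-rich element binder, rose by 0.61 ± 0.11.

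Other rises were spread over unrelated roles. Zfp593, the counterpart of a yeast factor that exports the large ribosomal subunit, had 8.78, 9.21 and 9.37 after tamoxifen against 7.93, 8.0 and 8.02 in vehicle. It rose by 1.14 ± 0.16 (adjusted p = 0.00357), and of its other probe sets 1 rose (0.89) and 1 did not pass (0.20). Averaged over the probe sets, its change was 0.74. Zfp455 gave 8.45, 8.90 and 8.98 after tamoxifen against 7.25, 7.29 and 7.57 in vehicle, a rise of 1.41 ± 0.16 (adjusted p = 0.00206) with separate groups. Zfp146, a small protein made almost wholly of fingers, rose by 0.83 ± 0.12, with 10.39, 10.26 and 10.68 after tamoxifen against 9.62, 9.60 and 9.64 in vehicle. Zfp202, known in human as a repressor of lipid metabolism genes, rose by 0.67 ± 0.12. These 4 genes kept their calls whichever array was left out.

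The remaining 6 rises were smaller and less firm. Zfp664 rose by 0.64, Zfp758 by 0.55 (1.10 by its dimmer probe set), Zfp658 by 0.52, Zfp217 by 0.44, Zfp143 by 0.37 and Zfp423 by 0.30. Zfp217 is a transcription factor amplified in human breast cancer, and Zfp143 an activator that sits at many promoters. Zfp423, which works with SMAD and EBF proteins in neural and fat cell development, passed narrowly (adjusted p = 0.04997) and did not pass with the experiment as a block (0.0789) or without any 1 array (0.0701 to 0.148). Its other 3 probe sets gave -0.15 to 0.16, none past the threshold. Zfp664 no longer passed once tamoxifen array 1 (adjusted p = 0.0703) or 2 (0.0718) was dropped. Zfp758 depended on tamoxifen arrays 1 and 2 and vehicle arrays 2 and 3 (0.0608 to 0.0718 without any one of them). Zfp658 depended on tamoxifen arrays 1 and 3 and vehicle arrays 2 and 3 (0.0630 to 0.0695). For Zfp217 these were tamoxifen arrays 1 and 2 and vehicle array 2 (0.0553 to 0.0622). Zfp143 depended on every array but vehicle array 2 (0.0640 to 0.0969).

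**Figure D3:**
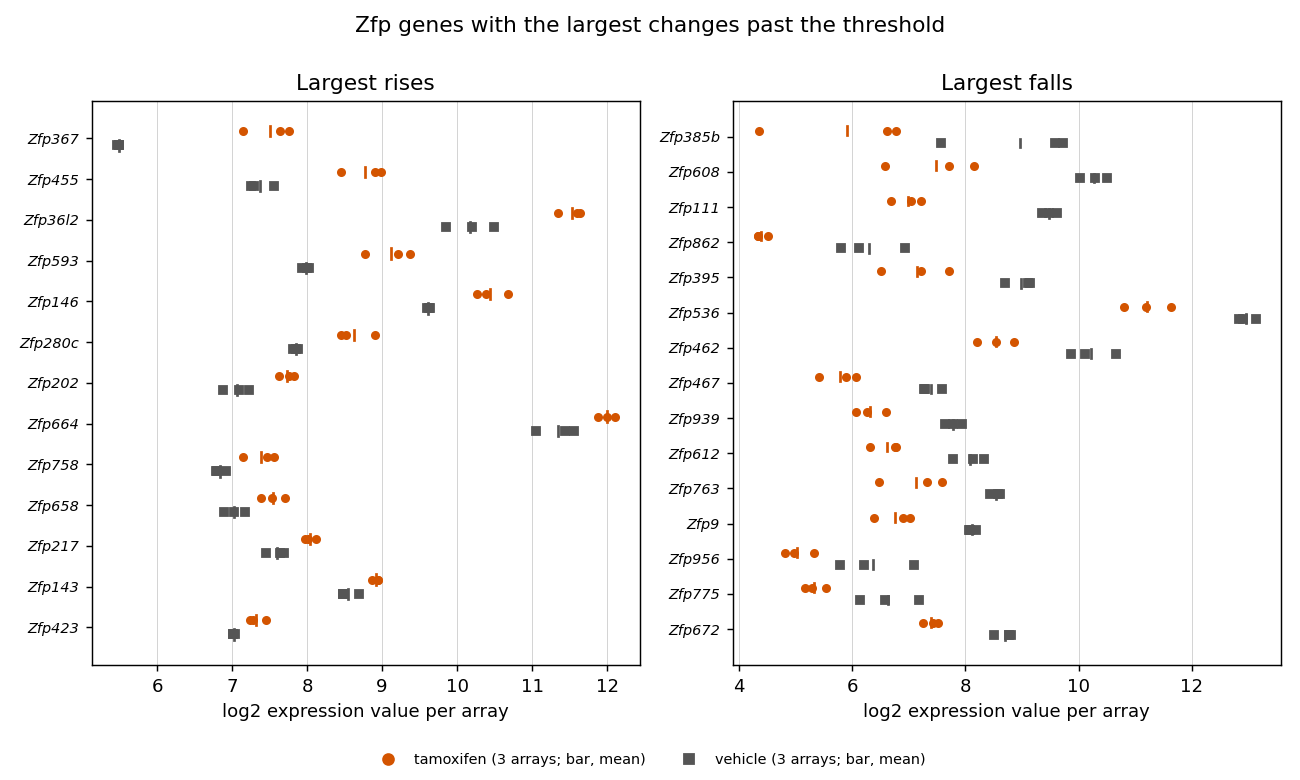
Log2 expression value on each array (x axis) for the 13 Zfp genes called higher and the 15 largest falls among those called lower, with 3 tamoxifen arrays above 3 vehicle arrays in each row and bars at the means. Within every row the groups are separate, as the choice of these genes requires.

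Among the falls, Zfp536 is a brake on neuronal differentiation known from mouse brain. It had 11.63, 11.19 and 10.81 on tamoxifen arrays, against 13.12, 12.84 and 12.90 on vehicle arrays. The groups were far apart, and the gene fell by 1.74 ± 0.21 (adjusted p = 0.00227), a level 3.34-fold higher in vehicle. Its other 3 probe sets fell too, with changes of -2.51 to -2.14. Zfp521, which restrains EBF1 and promotes neural fate in mouse stem cells, gave 9.40, 9.28 and 8.66 after tamoxifen against 10.78, 10.47 and 9.80 in vehicle. Array 3 was the lowest of each group, the groups did not overlap, and the change was -1.24 ± 0.29 (adjusted p = 0.0240). Leaving out vehicle array 2 (0.0716) or tamoxifen array 2 (0.0609) or 3 (0.0700) ended that call. With the experiment as a block Zfp521 did pass (0.00179), with differences of -1.38, -1.19 and -1.14 within experiments.

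Zfp703, a corepressor of the Nolz family and an oncogene in human breast cancer, was at 8.21, 8.08 and 8.59 after tamoxifen and at 9.30, 8.68 and 9.47 in vehicle. It fell by 0.86 ± 0.23 (adjusted p = 0.0379). It no longer passed once tamoxifen array 1 (0.106) or 2 (0.125), or vehicle array 1 (0.0861) or 3 (0.0982), was left out. With the experiment as a block it did pass (0.00742), with differences of -1.09, -0.61 and -0.88 within experiments. Its relative Zfp503 differed by 0.28 ± 0.13 the other way and did not pass (adjusted p = 0.178). Zfp24, needed for central myelination in mice, had a difference of -0.14 ± 0.11 (adjusted p = 0.439). Zfp488, a partner of Olig2 in oligodendrocytes, was dim on all arrays (4.11 to 4.28 after tamoxifen, 4.11 to 4.23 in vehicle) and differed by 0.04 ± 0.09. Of the 10 measured genes listed as neural and lineage factors, 5 fell and 1 rose, with a median of -0.35. These counts compare with 36.8% lower and 5.91% higher among all Zfp genes, and with 17.3% and 13.9% among all genes. The other listed genes that fell were Zfp580 (-0.86, a call lost without vehicle array 3 or any tamoxifen array, adjusted p = 0.0580 to 0.115) and Zfp292 (-0.56). Zfp292 lost its call without tamoxifen array 2 (0.0656) or 3 (0.0568), and of its other 5 probe sets 1 fell and 4 did not pass (-0.44 to 0.30). The mean of all its probe sets gave -0.16 (adjusted p = 0.324).

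The largest fall by its brightest probe set was that of Zfp385b, a relative of the p53 target Zfp385a. Its values were 6.77, 6.62 and 4.35 on tamoxifen arrays, against 9.73, 9.59 and 7.56 on vehicle arrays. The array of experiment 3 lay far below the others in each group, yet the groups did not overlap. Within experiments the differences were -2.95, -2.97 and -3.21, close to each other. Over all arrays the change was -3.05 ± 0.81 (adjusted p = 0.0361, or 0.000322 with the experiment as a block), and other probe sets gave -1.94, past the threshold, and -0.30, not past it. Leaving out vehicle array 1 (adjusted p = 0.0840) or 2 (0.103) or any tamoxifen array (0.0504 to 0.0759) ended the call, and so did a covariate for the 3' to 5' excess (0.0978). The mean of the probe sets was -1.76.

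Zfp608 and Zfp111 fell most among the genes whose calls held without each array. Zfp608, which restrains Rag genes in mouse thymocytes, had 8.15, 7.71 and 6.59 after tamoxifen against 10.50, 10.30 and 10.03 in vehicle. It fell by 2.79 ± 0.38 (adjusted p = 0.00339). Zfp111 gave 7.04, 7.22 and 6.69 after tamoxifen and 9.48, 9.35 and 9.62 in vehicle. Its groups were tight and far apart, and it fell by 2.50 ± 0.15 (adjusted p = 0.000277). Zfp862 was at 4.52, 4.33 and 4.34 after tamoxifen against 6.94, 6.13 and 5.80 in vehicle, and it fell by 1.89 ± 0.28.

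Several regulators that bind promoters or chromatin fell as well. Zfp395, which binds the huntingtin promoter in human cells, had 7.72, 7.22 and 6.52 after tamoxifen against 9.10, 8.70 and 9.13 in vehicle. It fell by 1.83 ± 0.30 (adjusted p = 0.00629). Zfp462, a chromatin protein of mouse stem cells and neurons, had 8.86, 8.21 and 8.54 after tamoxifen against 10.11, 9.87 and 10.65 in vehicle, and fell by 1.67 ± 0.24 (other probe set -1.42). Zfp467, which favours fat over bone cell fate in mice, fell by 1.60 ± 0.19, with 6.07, 5.89 and 5.41 after tamoxifen against 7.59, 7.28 and 7.29 in vehicle. Zfp827, a recruiter of the NuRD complex to telomeres in human cells, fell by 1.00 ± 0.18, and its other probe sets fell by 2.44 and 0.95. Zfp532, Zfp592 and Zfp687 form 1 human complex, and their changes were -0.91 ± 0.17, -0.31 ± 0.12 and -0.57 ± 0.21. By the brightest probe sets only Zfp532 of these 3 passed (adjusted p = 0.00943), with -0.21 and -0.08 by its other probe sets and -0.40 by their mean. A dimmer probe set of Zfp592 fell (-0.36), and Zfp687 passed with the experiment as a block (0.00994, against 0.0950).

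Related pairs of promoter binders gave mixed results. Zfp148 fell by 0.44 ± 0.09 (adjusted p = 0.0173), while its relative Zfp281, which binds the same GC-rich sites, differed by -0.14 ± 0.08 and did not pass (0.273). The difference between the pair was not tested. Other probe sets of Zfp148 gave -0.19 and -0.30, neither past the threshold. The call of Zfp148 depended on arrays 2 and 3 of both groups (0.0535 to 0.0659 with any one left out). Zfp260, a GATA4 partner described in rat heart cells, fell by 0.39 ± 0.10, a call that held only without tamoxifen array 2 among the single arrays left out (adjusted p up to 0.0841), and the mean with its dimmer probe set gave -0.24 (0.318). Zfp384, which binds the adaptor p130Cas, and Zfp410, an activator of Chd4, differed by 0.15 ± 0.11 and 0.18 ± 0.14 and did not pass. A dimmer probe set of Zfp410 rose (0.37). Of 16 measured promoter-binding regulators 6 fell and 2 rose, with a median of -0.35. The shares, 37.5% and 12.5%, compare with 36.8% and 5.91% of all Zfp genes, and with 17.3% and 13.9% of all genes.

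Of 15 measured members listed as KRAB repressors, 7 fell and none rose, with a median of -0.40. The share lower was 46.7%, against 36.8% of all Zfp genes and 17.3% of all genes. Zfp9 had 6.90, 7.02 and 6.38 after tamoxifen against 8.19, 8.08 and 8.07 in vehicle, and fell by 1.35 ± 0.17 (adjusted p = 0.00261). Zfp57, which protects imprinted methylation in mouse embryos, had 7.85, 7.92 and 7.70 after tamoxifen and 8.43, 8.48 and 8.66 in vehicle. Its groups were separate, and it fell by 0.70 ± 0.10 (adjusted p = 0.00457). Zfp282 fell by 0.69 ± 0.13, with -0.14 by its other probe set, which did not pass, and -0.42 by the mean of both. Zfp110, also known as NRIF, binds the p75 neurotrophin receptor in mice. It gave 9.14, 8.97 and 9.14 after tamoxifen against 9.52, 9.42 and 9.50 in vehicle, a fall of 0.40 ± 0.09 (adjusted p = 0.0193). The call of Zfp110 was lost without vehicle array 3 (0.0571) or tamoxifen array 2 (0.0674).

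The other 3 KRAB genes that fell were Zfp90 (-0.72), Zfp386 (-0.61) and Zfp496 (-0.50), the last a partner of the histone methyltransferase Nsd1. Zfp90 did not pass without vehicle array 2 or any tamoxifen array (adjusted p = 0.0544 to 0.0773), nor Zfp386 without vehicle array 2 (0.0608) or tamoxifen array 1 (0.0611). For Zfp496 the arrays on which the call depended were 1 and 2 of tamoxifen and 1 and 3 of vehicle (0.103 to 0.141). Zfp354a, first cloned from rat kidney as Kid-1, had 8.23, 8.36 and 8.40 after tamoxifen against 8.63, 8.59 and 8.91 in vehicle. The groups were separate, but the difference of -0.38 ± 0.12 did not pass (adjusted p = 0.0549). With the experiment as a block it did (0.0458), as did Zfp212 (-0.39, 0.0361, against 0.0805). Zfp133 and Zfp347 differed by -0.06 and -0.08, and Zfp68 and Zfp354c by 0.25 and 0.06.

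Of 13 measured KRAB corepressors, 3 rose and 1 fell, with a median of 0.11. These were 23.1% and 7.69%, against 13.9% and 17.3% of all genes. Trim28, the partner that KRAB boxes bind, averaged 11.35 ± 0.10 after tamoxifen and 11.10 ± 0.25 in vehicle (SD, n = 3 each), a difference of 0.26 ± 0.14 that did not pass (adjusted p = 0.253). The histone methyltransferase gene Setdb1 differed by 0.07 ± 0.11. Uhrf1, a hemimethylated DNA reader, rose by 1.84 ± 0.35, and Morc3 rose by 0.65 ± 0.11. Atf7ip, a cofactor of Setdb1, fell by 0.69 ± 0.16. The difference between the lists was not tested.

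Of 11 measured members that act on RNA, translation or ubiquitin, 4 fell and none rose, with a median of -0.26. The share lower was 36.4%, near the 36.8% of all Zfp genes, where 17.3% of all genes were lower. Zfp622, a factor of large ribosomal subunit maturation, had 9.45, 9.31 and 9.37 after tamoxifen against 10.15, 10.01 and 9.80 in vehicle. It fell by 0.61 ± 0.11 (adjusted p = 0.00955), the opposite direction to that of Zfp593 above. Zfp638, a nuclear protein of splicing speckles, fell by 0.59 ± 0.12, with -0.58 and -0.27 by its other probe sets. Zfp106, an RNA binder needed by motor neurons in mice, fell by 0.47 ± 0.10, which did not hold with tamoxifen array 2 left out (adjusted p = 0.0503) or for the mean of its probe sets (0.058). Its other probe sets gave -0.83, past the threshold, and -0.05. Zfp346, a binder of double-stranded RNA, fell by 0.46 ± 0.13, with 0.12 by its other probe set and -0.17 by the mean of both. That call ended without vehicle array 2 (0.0723) or any tamoxifen array (0.106 to 0.129).

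The splicing factor gene Zfp326 differed by -0.46 ± 0.15 (adjusted p = 0.0736) and passed with the experiment as a block (0.0376). Zfp598, the ubiquitin ligase of stalled ribosomes, had 9.59, 9.44 and 9.76 after tamoxifen against 9.59, 8.81 and 8.91 in vehicle. Vehicle array 1 lay within the range of the tamoxifen arrays, and the difference of 0.50 ± 0.21 did not pass (0.149). Zfp91, a ubiquitin ligase of NF-kappaB signalling, had 8 probe sets, the most of any member. Its brightest gave -0.03 ± 0.13, whereas the other 7 all gave differences above 0 (0.31 to 0.89), of which 1 passed (0.48, adjusted p = 0.00930). The mean of all 8 was 0.54 (adjusted p = 0.0295).

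**Figure D4:**
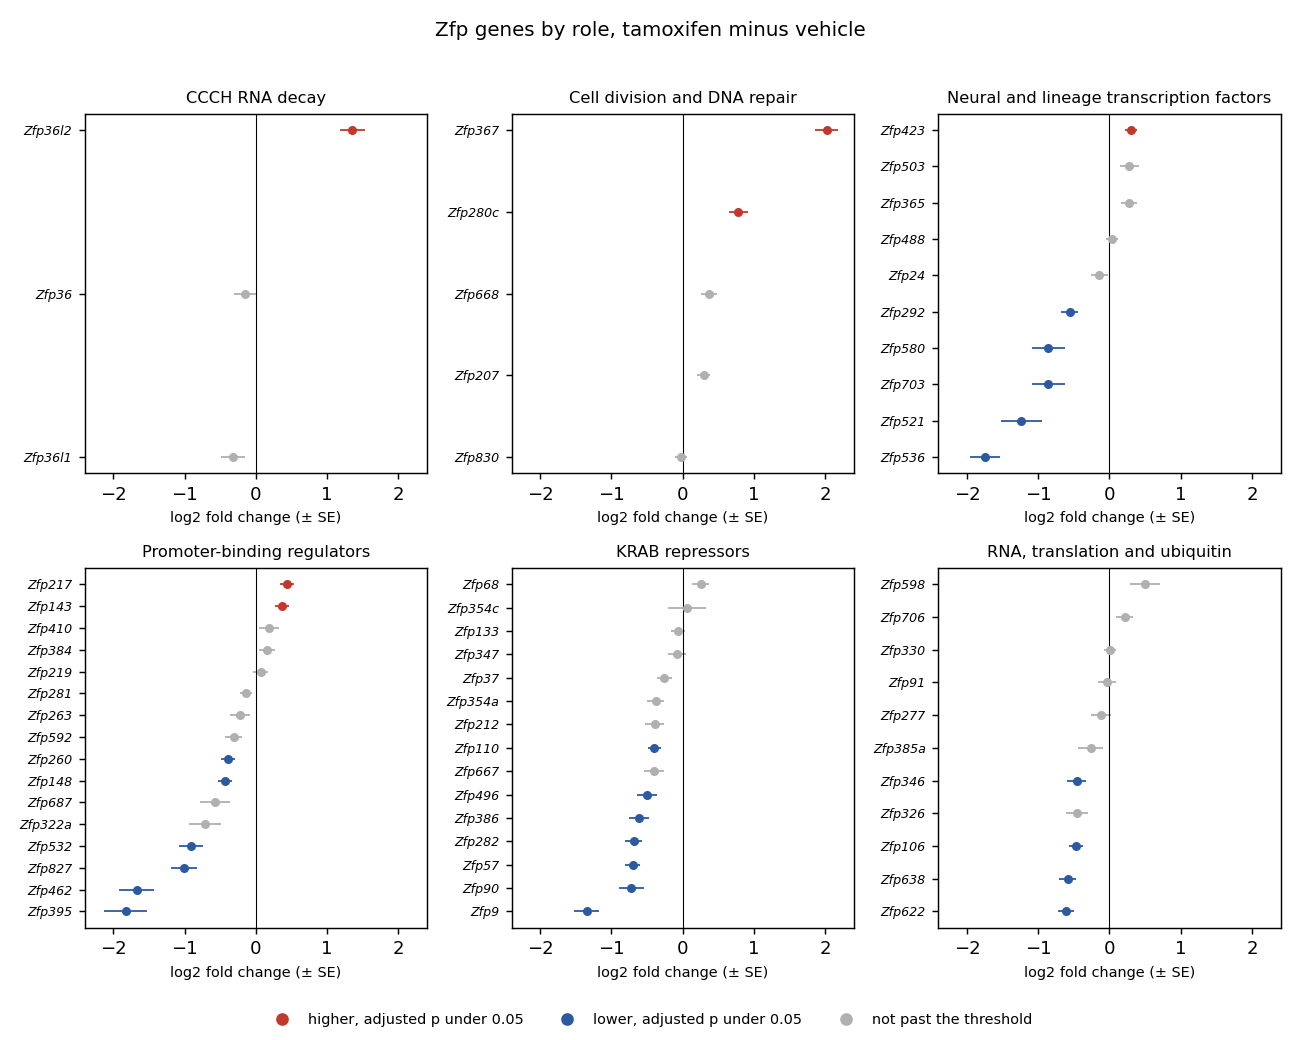
Log2 fold change with its standard error (x axis), tamoxifen minus vehicle, for the 60 measured Zfp genes of 6 role lists (rows, in order of change). Calls lower outnumber calls higher in the neural, promoter-binding, KRAB and RNA panels, and the 2 called genes of the cell division panel are both higher.

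The largest falls also included genes with no role given here. Zfp939 fell by 1.47 ± 0.16, Zfp612 by 1.47 ± 0.18, Zfp763 by 1.41 ± 0.27 and Zfp672 by 1.30 ± 0.12. For Zfp672 the values were 7.43, 7.52 and 7.24 after tamoxifen against 8.77, 8.81 and 8.51 in vehicle, tight in both groups. The other probe set of Zfp612 gave -0.23 and did not pass, and the mean of both gave -0.85. Zfp956 (-1.33) and Zfp775 (-1.30) spread more on vehicle arrays, with 7.10, 6.22 and 5.79 for Zfp956 and 7.18, 6.14 and 6.58 for Zfp775. On tamoxifen arrays Zfp956 had 4.97, 4.82 and 5.33, and Zfp775 had 5.30, 5.16 and 5.54. Vehicle array 1 was the highest for both. Zfp956 lost its call without vehicle array 2 (adjusted p = 0.0588) or any tamoxifen array (0.0512 to 0.0960), and Zfp775 without tamoxifen array 2 (0.0514).

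Several probe sets stood for 75 of the genes, of which 37 were called by the brightest one. For 14 of these 37 another probe set passed the same way, for 23 none of the others passed, and for 0 did another pass the opposite way. Among the 38 not called by the brightest, 8 had another probe set past the threshold. Over all 341 probe sets, 101 (29.6%) were lower and 20 (5.87%) higher, against 12.9% and 11.5% of all probe sets. Members such as Zfp729 and Zfp729b may share probes. Their sequences and probes were not compared, so their separate values (-0.77 and -0.80) are to be read with care. With the shared-sequence probe sets (_s_at, _x_at and _a_at) dropped, 79 of 213 Zfp genes were lower and 13 higher. Of the probe sets kept, 12.9% were lower and 11.5% higher.

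**Figure D5:**
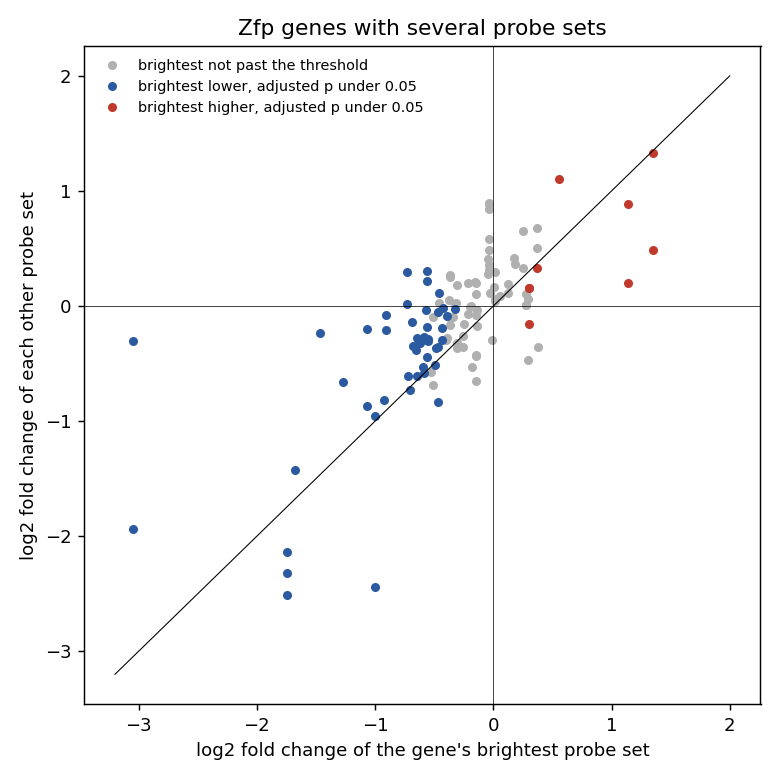
Log2 fold change of each dimmer probe set (y axis) against that of the same gene's brightest probe set (x axis), for the 75 Zfp genes with several, with the line of equal change. All other probe sets of Zfp536 lie below the line, and no gene has probe sets called in opposite directions.

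Signal on an array reflects probe affinity as well as abundance, so the levels of different genes are not ranked here. All genes were split into 4 equal bins of mean signal. From the dimmest bin to the brightest, 4 of 27, 34 of 83, 29 of 80 and 14 of 30 Zfp genes were lower, and 0, 5, 5 and 3 were higher. The shares lower were 14.8%, 41.0%, 36.3% and 46.7%, where all genes had 1.86%, 16.0%, 27.7% and 23.4%.

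Other symbol classes of DNA-binding finger proteins were counted the same way. Of 35 Zbtb genes, which pair fingers with a BTB domain, 12 were lower and 3 higher, with a median of -0.32. Of 11 Zscan and Zkscan genes, which carry a SCAN domain, 4 were lower and 0 higher (median -0.31), and of 9 Znf genes 2 were lower and 0 higher (median -0.19). The 14 Klf genes, which include early-response factors, had 1 lower and 2 higher and a median of 0.08. None of these differences between classes was tested.

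Placed by the RefSeq gene table (GRCr8), 62 Zfp genes lay on chromosome 1, of which 20 fell and 4 rose, and 15 lay on chromosome 4, of which 9 fell and 0 rose. Of all genes on these chromosomes 19.1% and 17.8% were lower. Of 18 Zfp genes on chromosome 10, 7 fell, of 8 on chromosome 19, 5 fell, and of 5 on chromosome 14, 0 fell. Of all genes there, 17.1%, 20.7% and 17.7% were lower, in the same order. Differences between chromosomes were not tested. Among protein-coding genes, 52 Zfp genes stood directly beside another measured one, giving 31 pairs. Both genes fell in 7 pairs, 1 of the pair fell in 15 and neither in 9, and in 0 pairs were the genes called in opposite directions. Of all Zfp genes 36.8% were lower and only 5.91% higher, so opposite calls would be rare anyway. Whether neighbours changed together was not tested. On chromosome 1, Zfp260 fell and Zfp146 rose with only Zfp382 (-0.40, not past the threshold) between them. A run of 4 on chromosome 4 comprised Zfp398, Zfp282, Zfp212 and Zfp956, of which 2 fell and all 4 had differences below 0. Another on chromosome 8 held Zfp26, Zfp426, Zfp266 and Zfp846, with 2 that fell and all 4 below 0. In the third run of 4, on chromosome 1, Zfp764 and Zfp688 fell (-0.73 and -1.10), while Zfp689 (-0.29) and Zfp764l1 (0.08) did not pass.

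Promoters of 183 Zfp genes were found in the table, and the motifs marked in the sequences above were counted in them. The ETS core was present in 19.7% of them, the AP-1 site in 3.83% and the EGR core in 4.37%. In the promoters of all genes on the array with an entry (11700), the shares were 15.1%, 3.79% and 7.35%, and over all 33469 promoters listed they were 8.75%, 4.63% and 4.33%. Of the 10 promoters of genes called higher, 4 held the ETS core, 1 the AP-1 site and 2 the EGR core. Of the 64 of genes called lower, 8, 0 and 1 did. The AP-1 and ETS matches in Zfp455 and the EGR match in Zfp36l2 are among those of genes called higher, and the Zfp367 and Zfp536 windows held none of the 3 motifs. A match in such a window is a run of letters and not a known binding site.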

How the data were processed

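The deposited values are log2 expression per probe set on 6 arrays, from 2.99 to 14.58. The submitters' processing notes name RMA, a method that adjusts background, equalises arrays and combines the probes of a set, with no version. It shrinks differences between dim values, so changes of dim genes may be too small, and no detection calls were used. RNA was purified with RNeasy plus, per the labels' protocols.

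Of 31099 probe sets, 57 controls were dropped. The platform annotation gave 1 symbol for 20826 probe sets, several for 436 and none for 9780, and 7 with several symbols that included a Zfp gene were not used. A gene's value came from its probe set of highest mean over all 6 arrays. All 220 Zfp symbols matched the RefSeq gene table (GRCr8), 219 as protein-coding. The arrays were compared with limma 3.58.1 (lmFit, eBayes) in R 4.3.3, two-sided, and p-values were adjusted by Benjamini-Hochberg over 31042 probe sets, with 0.05 as threshold. Changes are tamoxifen minus vehicle in log2 units, ± the model's SE. With 3 arrays in each group no exact permutation test can reach a p under 0.1, and none was run. The fit was tested on simulated data.

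The members and lists were chosen with earlier results of these data known. Named genes are the 15 largest rises (13 existed) and the 15 largest falls past the threshold with separate groups, measured members of role lists, and up to 3 called genes of each partner list. Trim28, Setdb1, Zfp729, Zfp729b and the neighbouring genes were named after their values were seen. Naming by signal rank was dropped because probes differ in affinity, and finger counts were not made here. A list of membrane and other members had none measured.

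Arrays with the same experiment number deviated from their group means together (correlations of 0.26, 0.20 and 0.28), so the numbers were taken as pairs, and a blocked fit was tried beside the main one. Precision is limited by how few arrays there are. Further alternatives left out each array, centred arrays on the median, normalised by quantiles, filtered the dimmest 30% of probe sets, changed the variance model, weighted arrays, averaged probe sets, dropped those of shared sequence, added the 3' to 5' excess as a covariate or required a fold of 1.5. Omitting both arrays of experiment 1 was chosen after seeing the data.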

Additional observations from a re-analysis of the deposited data

How the results depend on the processing

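No call of a Zfp gene changed direction under the alternatives run. Leaving out 1 array gave 57 to 85 called Zfp genes in place of 94. Of these, 49 to 69 were lower in place of 81, and 7 to 16 higher in place of 13. Of all probe sets, 8.59% to 12.1% were then lower and at least 7.82% higher, against 12.9% and 11.5% with all arrays. The unmoderated test called 43 Zfp genes (36 lower and 7 higher). Requiring more than 1.5-fold, a larger change by construction, called 14 (11 and 3). With the experiment as a replicate block there were 98 calls (84 lower and 14 higher), with 8 lost and 12 gained. Of all probe sets 14.8% were then lower and 11.8% higher. The block changed no call of a named gene beyond those given above. Median centring gave 86 lower and 12 higher, where 14.0% and 10.4% of all probe sets were so called. Quantile normalization gave 77 and 18 (all probe sets 12.3% and 11.7%). Trended robust variances gave 78 and 13 (12.4% and 11.6%), and array weights 87 and 19 (13.8% and 12.8%). The dim filter gave 81 and 12 of 199 Zfp genes, against 18.5% and 15.8% of the probe sets kept. Means of probe sets gave 79 and 16, against 17.8% and 15.9% of all genes. The covariate for the 3' to 5' excess gave 64 and 16, where 11.4% and 10.5% of all probe sets were called. It lost 25 of the 94 calls and gained 11. Among the named genes it ended the calls of Zfp143, Zfp423, Zfp385b, Zfp521, Zfp703, Zfp110, Zfp496, Zfp260 and Zfp346. Omitting both arrays of experiment 1, chosen after seeing the data, gave 58 and 10, against 10.5% and 9.76% of all probe sets. Zfp395, Zfp763, Zfp532, Zfp827, Zfp638 and Zfp282 lost their calls in the unmoderated test and in no other of these settings apart from the 1.5-fold requirement, which was not followed gene by gene. The causes of these shifts were not tested.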
